A study of Mus musculus with 6 samples.

Results

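The IL-1 and IL-18 axis was examined here as 9 genes, taken as the rows of the deposited count tables that carry these symbols, of 23424 genes in all. They were the ligands Il1a, Il1b and Il18, the secreted antagonists Il1rn and Il18bp, the receptors Il1r1, Il1r2 and Il1rl1, and the processing enzyme Casp1, and all 9 were found in each of the 6 tables. The libraries came from F4/80high and F4/80low tumor-associated macrophages (TAMs), with 3 libraries of each subset. All hosts were female wild-type C57Bl/6J mice that were 8 weeks old at tumor induction and received no treatment. YUMM1.7, a mouse melanoma cell line, was grown in the dermis, and the tumors were taken on day 21. Live CD45+ CD11b+ F4/80+ cells were sorted by their F4/80 level from pooled tumors in 3 independent experiments, so that a library stands for a pool and not for a mouse. The study's methods add a lineage-negative (Lin-) gate to this sort, which the sample labels do not name and whose antibodies are not listed for it. Replicates 1 and 2 of both subsets form batch 1 and replicate 3 of both forms batch 2, as the study draws them.

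IL-1α and IL-1β bind the same signalling receptor, IL-1R1, which then engages MyD88 and NF-κB. The pathway is held back outside the cell by IL-1RN, an antagonist that occupies the receptor without signalling, and by IL-1R2, a decoy that binds the ligand and has no signalling domain. IL-1β and IL-18 are made as inactive precursors and are cut by caspase-1 in inflammasomes, and secreted IL-18 is bound by IL-18BP. Il1rl1 encodes ST2, the receptor for the related alarmin IL-33, and myeloid cells in inflamed skin and in tumors are a known source of IL-1β.

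RefSeq start sites of GRCm38.p6 were found for 9 of 9 genes, at 13 starts. The 250 bases before the start are shown for the 3 genes with the smallest p between the subsets when libraries were paired by experiment, which are Il1b, Il1rn and Il1r2. Capitals mark letters that match GGGNNNNNCC (NF-κB type), TGANTCA (AP-1 type), GAAANNGAAA (interferon response type) or GAGGAA (PU.1 type) on either strand, and where matches overlapped their letters were joined.
Il1b, chr2:129371140-129371389, minus strand: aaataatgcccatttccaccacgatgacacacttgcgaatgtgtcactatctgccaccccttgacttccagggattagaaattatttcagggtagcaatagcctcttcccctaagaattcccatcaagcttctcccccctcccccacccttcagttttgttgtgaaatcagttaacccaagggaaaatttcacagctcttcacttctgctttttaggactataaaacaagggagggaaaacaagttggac
Il1rn, first start, chr2:24336610-24336859, plus strand: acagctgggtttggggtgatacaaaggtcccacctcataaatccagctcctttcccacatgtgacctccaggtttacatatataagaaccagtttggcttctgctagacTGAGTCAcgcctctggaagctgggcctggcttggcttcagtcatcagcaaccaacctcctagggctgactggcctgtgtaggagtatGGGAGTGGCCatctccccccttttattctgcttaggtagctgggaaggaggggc
Il1rn, last start, chr2:24345121-24345370, plus strand: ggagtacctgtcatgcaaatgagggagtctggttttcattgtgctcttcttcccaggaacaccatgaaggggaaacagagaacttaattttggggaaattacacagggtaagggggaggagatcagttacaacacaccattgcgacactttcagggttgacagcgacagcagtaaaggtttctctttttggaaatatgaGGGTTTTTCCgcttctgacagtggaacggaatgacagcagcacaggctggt
Il1r2, chr1:40085843-40086092, plus strand: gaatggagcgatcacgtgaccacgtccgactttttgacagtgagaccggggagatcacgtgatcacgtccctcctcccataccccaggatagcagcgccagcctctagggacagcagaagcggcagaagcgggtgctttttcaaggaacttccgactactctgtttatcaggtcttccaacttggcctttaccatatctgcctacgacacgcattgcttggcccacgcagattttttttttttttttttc

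The letters of 2 patterns were common: among 32851 windows of the same length before RefSeq starts, 45.8% held the NF-κB type and 23.3% the PU.1 type. The AP-1 type was in 6.75% and the interferon response type in 2.98%. The first Il1rn window held the AP-1 type 141 bases and the NF-κB type 54 bases before the start, and the last one held the NF-κB type 51 bases before the start. A middle Il1rn window, chr2:24345041-24345290, is not shown and matched none of the 4 patterns. The Il1b and Il1r2 windows matched none of the 4 patterns, which says only that these letters are not in these 250 bases. Over all starts, the NF-κB type was found for 3 of the 9 genes (Casp1, Il1r1 and Il1rn), the AP-1 type for 2 (Il1a and Il1rn), the PU.1 type for 2 (Casp1 and Il1a) and the interferon response type for 0.

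The libraries held 16045281 to 43604373 counts, the 2 of batch 2 being the smallest, and levels are given in counts scaled to a normalized library size (CPM). The scaling factors (TMM) were 1.21 to 1.34 in batch 1, and 0.646 and 0.601 for F4/80high and F4/80low in batch 2. Levels compared across the batches, and whether the subsets overlapped, depend on this scaling. Adgre1, which encodes F4/80, measured 273, 539 and 360.3 CPM in F4/80high replicates 1, 2 and 3 and 243, 327 and 183 CPM in F4/80low. It was higher in F4/80high in each of the 3 pairs, with ranges that overlapped and a log2 fold change of 0.67 (SE 0.30, adjusted p = 0.664, edgeR's quasi-likelihood test with batch). All 13 macrophage markers were detected, and their summed level was 9039 to 33476 CPM in F4/80high and 9011 to 15895 CPM in F4/80low.

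The 9 genes spanned a wide range of levels when compared per length. Il1b was at 1017 ± 696 CPM per kilobase (SD, n = 6 libraries) and ranked 30 among 14645 genes tested. Il1r2 followed at 256 ± 197 and rank 174, and Il1rn at 92.6 ± 29.7 and rank 560. Il1a, Casp1 and Il18 lay at 47.6 ± 20.8, 32.5 ± 12.4 and 30.3 ± 11.6 CPM per kilobase, and Il18bp, Il1rl1 and Il1r1 were lowest at 14.5 ± 4.37, 10.2 ± 2.63 and 5.27 ± 5.85. The order of Il1b over Il1r2 and of Il1r2 over Il1rn held in 6 of 6 libraries, as did Il1a over Casp1 and Il18 over Il18bp. Casp1 and Il18, and likewise Il18bp and Il1rl1, were ordered this way in 4 of 6 libraries, so these neighbours did not differ beyond their spread. Il1rn over Il1a and Il1rl1 over Il1r1 held in 5 of 6.

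Between the subsets, Il1b, its antagonist Il1rn, its decoy Il1r2, the IL-33 receptor Il1rl1 and Il18 had lower levels in F4/80high TAMs in every pair of libraries, but none of the 9 genes was called. Genes were called in edgeR's quasi-likelihood test with batch where the log2 fold change exceeded 1 in size and the p adjusted over all genes (Benjamini-Hochberg) was under 0.05, which 0% of the genes tested reached. At an unadjusted p under 0.05, 1 of 9 passed (Il1rn, lower in F4/80high), against 7.6% of all genes tested, a share close to the background. Point estimates were lower in F4/80high for 8 of 9 genes, with a median log2 fold change of -0.43. Over all genes tested the median was 0.01, and 50.8% had higher point estimates. Lower in all 3 pairs were 5 of 9 (Il1b, Il1rn, Il1r2, Il1rl1 and Il18), against 16% of all genes tested. At this scaling the 3 libraries of F4/80low lay entirely above those of F4/80high for 2 of 9, Il1rn and Il18, against 2.9%. For Il18 the gap was narrow, at 18.1 against 18.5 CPM.

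A fit that took the experiment as a block instead of batch sets the 2 libraries of one experiment against each other. In this fit, 0 of 9 were called by edgeR, against 0.519% of the genes tested. Under this block 3 of 9 had an unadjusted p under 0.05, against 9.91%, and these were Il1b, Il1rn and Il1r2, all lower in F4/80high. DESeq2 with the same block called 1 of 9, Il1r2, against 2.43%. In sorted bulk libraries, fewer cells of a type and less RNA per cell cannot be told apart, and this holds for every difference below.

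**Figure D1:**
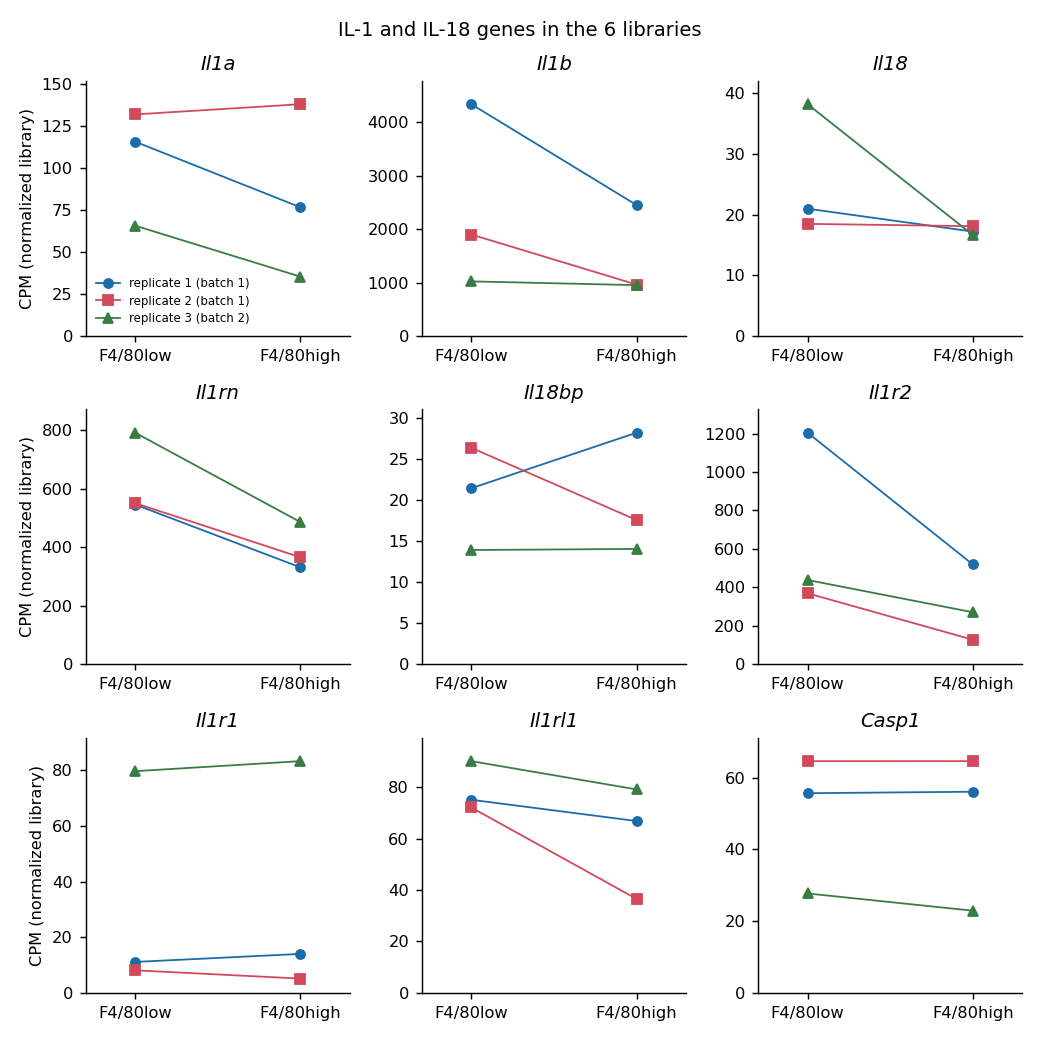
CPM on a linear axis from 0 (normalized library) of each of the 9 genes in the 6 libraries, with a line joining the F4/80low and F4/80high libraries of one experiment. The lines of Il1b, Il1rn, Il1r2, Il1rl1 and Il18 run downward to F4/80high in all 3 experiments, while those of Il1a, Il1r1, Il18bp and Casp1 do not share a direction.

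Il1b (ENSMUSG00000027398, chr2:129364570-129371139 in GENCODE M21 of GRCm38, minus strand) encodes IL-1β. It measured 2452, 962 and 953 CPM in F4/80high replicates 1, 2 and 3 and 4341, 1900.4 and 1022 CPM in F4/80low. Replicate 1 was the highest library of each subset, the subsets overlapped, and F4/80low was higher in each experiment, by little in batch 2. The log2 fold change of F4/80high over F4/80low was -0.82, -0.98 and -0.10 in pairs 1, 2 and 3 and -0.62 in the fit with batch (SE 0.42, adjusted p = 0.737, edgeR). With the block it was -0.64 (SE 0.20, unadjusted p = 0.0123, adjusted p = 0.302, edgeR). The log2 fold change was -0.87 without batch 2. It was -0.99 when F4/80high replicate 1 was left out and -0.13 when F4/80low replicate 1 was.

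Il1a (ENSMUSG00000027399, chr2:129299610-129309972, minus strand) lies next to Il1b and encodes IL-1α, which is active without caspase-1. Its levels were 76.7, 138 and 35.4 CPM in F4/80high and 116, 132 and 65.7 CPM in F4/80low. The subsets overlapped, and the libraries of replicate 2 were level while F4/80low was higher in the other two. Its log2 fold change was -0.43 (SE 0.28, adjusted p = 0.733, edgeR with batch), with pair values of -0.59, 0.06 and -0.89. It was -0.81 (unadjusted p = 0.00802, adjusted p = 0.479, edgeR) when F4/80high replicate 2 was left out and -0.21 when replicate 3 of either subset was.

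Il18 (ENSMUSG00000039217, chr9:50554827-50581840, plus strand) encodes IL-18. It was found at 17.2, 18.1 and 16.6 CPM in F4/80high, and at 21.0, 18.5 and 38.2 CPM in F4/80low. At this scaling the F4/80high libraries were nearly equal, and the subsets were separated only by 18.1 against 18.5 CPM. Both traits depend on the scaling factors of the 2 batches. The pair values were -0.28, -0.03 and -1.20. For Il18 the log2 fold change was -0.50 (SE 0.30, adjusted p = 0.712, edgeR with batch), and it was -0.16 without batch 2.

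Il1rn (ENSMUSG00000026981, chr2:24336853-24351494, plus strand) encodes the receptor antagonist and had the most even difference. It measured 332, 366 and 487 CPM in F4/80high and 547, 551 and 792 CPM in F4/80low. Every F4/80low library lay above every F4/80high library, and replicate 3 was the highest of each subset. Pair values were -0.72, -0.59 and -0.70, and the log2 fold change was -0.67 (SE 0.21, unadjusted p = 0.0100, adjusted p = 0.522, edgeR with batch). The adjusted p was 0.175 with the block in edgeR and 0.0359 with the block in DESeq2, where the fold change stayed under the threshold for a call. Over 17 alternative settings the log2 fold change lay between -0.75 and -0.63, and it was -0.65 within batch 1.

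Il18bp (ENSMUSG00000070427, chr7:102014885-102018690, minus strand) encodes the soluble binder of IL-18. Its levels were 28.2, 17.6 and 14.1 CPM in F4/80high and 21.4, 26.4 and 13.9 CPM in F4/80low. The subsets overlapped and the pairs did not share a direction, with a log2 fold change of -0.04 (SE 0.29, adjusted p = 0.985, edgeR with batch) that was 0.02 when libraries were scaled by their size alone.

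Il1r2 (ENSMUSG00000026073, chr1:40074079-40125231, plus strand) encodes the decoy receptor and had the largest fold change of the 9 genes. It measured 519, 128 and 271 CPM in F4/80high and 1204, 369.8 and 439 CPM in F4/80low. Replicate 1 was again the highest of each subset, and the subsets overlapped because F4/80high replicate 1 exceeded F4/80low replicates 2 and 3. Within every experiment F4/80low was higher, with pair values of -1.21, -1.53 and -0.69.

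The log2 fold change of Il1r2 was -1.09 (SE 0.54, adjusted p = 0.693, edgeR with batch). With the block its error was smaller, at -1.15 (SE 0.21, unadjusted p = 0.000440, adjusted p = 0.0607, edgeR), and DESeq2 with the block gave an adjusted p of 7.46e-05. It was -1.28 without batch 2, -1.76 when F4/80high replicate 1 was left out, and -0.41 when F4/80low replicate 1 was.

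Il1r1 (ENSMUSG00000026072, chr1:40225080-40317257, plus strand) encodes the signalling receptor of IL-1. It was at 14.0, 5.15 and 83.2 CPM in F4/80high and 11.1, 8.11 and 79.6 CPM in F4/80low. Both libraries of batch 2 stood far above the 4 of batch 1, and the subsets overlapped. The log2 fold change was 0.02 (SE 0.36, adjusted p = 0.996, edgeR with batch) and was -0.08 with the block. Summed endothelial markers were also highest in batch 2, at 45.7 and 20.5 CPM against 5.73 to 10.6 in batch 1. Kdr alone gave 38.9 and 14.9 CPM of these sums, while Vwf was lowest in batch 2. Summed fibroblast markers were highest in batch 2 as well, at 1559 and 1914 CPM against 459 to 1335. Col1a2 alone gave 1038 and 1300 CPM of them, while Col3a1 was lowest in batch 2 within each subset. The remaining markers of both lists did not share a direction between the batches. The part of endothelial cells and fibroblasts in the level of Il1r1 was not tested.

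Il1rl1 (ENSMUSG00000026069, chr1:40429570-40465415, plus strand) encodes ST2, which mast cells and some lymphocytes carry. Its levels were 66.8, 36.5 and 79.1 CPM in F4/80high and 75.1, 72.1 and 90.1 CPM in F4/80low. F4/80high replicate 2 was the low library, and the subsets overlapped. The log2 fold change was -0.40 (SE 0.27, adjusted p = 0.735, edgeR with batch), with pair values of -0.17, -0.98 and -0.19.

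Casp1 (ENSMUSG00000025888, chr9:5298517-5307265, plus strand) encodes the protease that matures IL-1β and IL-18. It measured 56.1, 64.6 and 22.9 CPM in F4/80high and 55.7, 64.6 and 27.7 CPM in F4/80low. The subsets were nearly level within batch 1, and both libraries of batch 2 were low. Casp1 had a log2 fold change of -0.08 (SE 0.22, adjusted p = 0.950, edgeR with batch).

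**Figure D2:**
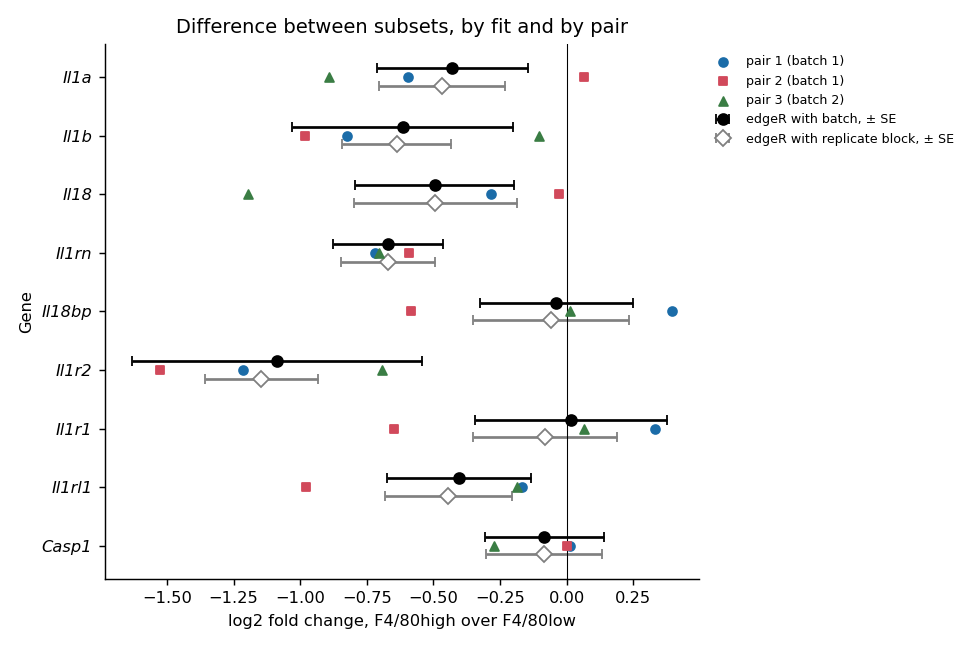
Log2 fold change of F4/80high over F4/80low for each gene from edgeR with batch (black) and with the replicate block (white diamonds), with bars of 1 SE, and the difference in each pair of libraries (colored marks). The bar of Il1r2 shrinks from an SE of 0.54 to 0.21 with the block, and the 3 marks of Il1rn lie closest together.

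Ratios of 2 genes within a library do not depend on how libraries are scaled, and each sets an inhibitor or sister gene against a partner. Counts per kilobase of Il1rn were 0.0466, 0.131 and 0.176 times those of Il1b in F4/80high replicates 1, 2 and 3, against 0.0434, 0.09996 and 0.267 times in F4/80low. The ratio differed more between experiments than between subsets, with means of -3.29 ± 1.01 and -3.25 ± 1.31 on the log2 scale (SD, n = 3; exact permutation test, two-sided, p = 1.0).

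The decoy exceeded the signalling receptor in all 6 libraries. Il1r2 stood at 124, 82.9 and 10.9 times Il1r1 in F4/80high and at 361, 152 and 18.4 times in F4/80low. The ratio was lower in F4/80high in each pair, by -1.55, -0.87 and -0.76 on the log2 scale, and lowest in batch 2. The subset means were 5.59 ± 1.88 and 6.65 ± 2.21 (SD, n = 3; exact permutation test without pairs, p = 0.5), with SDs that include the difference between the batches. Within pairs the mean difference was -1.06 ± 0.43 (SD, 3 pairs), larger than its spread and of one direction in 3 of 3. An exact sign-flip permutation test over the pairs, added after the data were seen, gave p = 0.25, the smallest that 3 pairs allow.

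Il18bp to Il18 was 0.835, 0.495 and 0.431 in F4/80high, against 0.521, 0.727 and 0.186 in F4/80low (mean log2 difference 0.45, exact permutation p = 0.7). Il1a to Il1b was 0.0302, 0.139 and 0.0359 in F4/80high, against 0.0258, 0.0671 and 0.0621 in F4/80low (mean log2 difference 0.16, exact permutation p = 0.8). Neither ratio kept one direction over the 3 pairs. With 3 libraries a subset the smallest p this two-sided test allows is 0.1, and all 4 adjusted p were 1.0 (Benjamini-Hochberg over 4 exact tests).

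**Figure D3:**
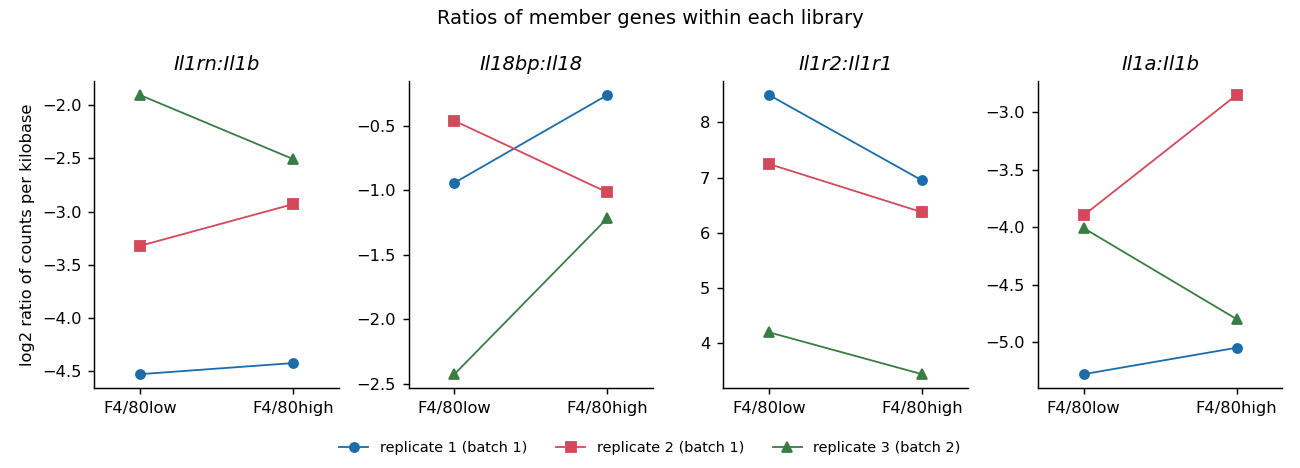
Log2 ratio of counts per kilobase within each library for Il1rn to Il1b, Il18bp to Il18, Il1r2 to Il1r1 and Il1a to Il1b, with lines joining the libraries of one experiment. Il1r2 to Il1r1 is lower in F4/80high in all 3 experiments, and for the other ratios the lines run in both directions.

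Other genes of the pathway were taken from a list of 80 symbols in 6 roles, in which the IL-36 cytokines stand under older and newer symbols. Of these, 72 were found in the tables and tested. None was called with batch, and at an unadjusted p under 0.05 there were 7 lower and 1 higher in F4/80high, where 7.6% of all genes tested passed in either direction. When F4/80low replicate 1 was left out the 7 became 3, and they became 19 when F4/80low replicate 2 was and 16 when F4/80high replicate 1 was. The 1 became 0 when F4/80low replicate 2 or replicate 3 of either subset was left out, and it became 2 or 3 when replicate 1 or 2 of F4/80high was. Point estimates were lower in F4/80high for 54 of 72, with a median log2 fold change of -0.28. Over all genes tested 50.8% had higher point estimates, and the median was 0.01. Lower in all 3 pairs were 30 of 72 pathway genes, against 16% of all genes tested. With the block 19 were lower and 2 higher at an unadjusted p under 0.05, against 9.91% of all genes tested. In that edgeR fit 1 was called, against 0.519%.

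Among the other ligands, Il33 and Il1f9 were tested. Il1f9, which encodes IL-36γ, measured 28.9, 10.7 and 2.49 CPM in F4/80high and 91.5, 19.2 and 8.56 CPM in F4/80low. It was lower in F4/80high in each pair, with overlapping ranges and a log2 fold change of -1.57 (SE 0.58, unadjusted p = 0.0231, adjusted p = 0.581, edgeR with batch). Of 7 further receptor genes 0 passed this p, with 3 higher and 4 lower, and Il1rapl1 and Il1rapl2 had 15 and 50 counts over all libraries. Of 16 genes of signalling from the receptor to NF-κB, from Myd88 to Tnip1, 0 passed, with 5 higher and 11 lower and a median of -0.11.

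Of 21 inflammasome and release genes, with a median of -0.30, 3 lower and 1 higher passed an unadjusted p under 0.05, against 7.6% of all genes tested. P2rx7, the ATP-gated channel that triggers NLRP3, was at 24.5, 74.1 and 140.5 CPM in F4/80high and 17.3, 26.5 and 82.4 CPM in F4/80low. It was higher in F4/80high in each pair, while the subsets overlapped (log2 fold change 1.04, SE 0.39, unadjusted p = 0.0257, adjusted p = 0.597, edgeR with batch). Nlrp12, a leukocyte member of the NLR family, had a log2 fold change of -1.44 (SE 0.44, unadjusted p = 0.00910). Naip5 and Naip6, sensors of bacterial flagellin, had log2 fold changes of -0.73 and -0.73 (unadjusted p = 0.0109 and 0.0237), but they are near-identical copies between which reads may be split.

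Of 20 genes known to be induced by IL-1, 3 lower and 0 higher passed, against 7.6% of all genes tested. Lower in all 3 pairs were 12 of 20, against 16% of all genes tested. Point estimates were lower for 16 and higher for 4, among them Tnf at 0.53, which was higher in each pair. Lcn2, an iron-scavenging protein that neutrophils also store, measured 104, 48.7 and 28.3 CPM in F4/80high and 267, 146 and 60.2 CPM in F4/80low. F4/80low was higher in each pair, the subsets overlapped, and the log2 fold change was -1.32 (SE 0.34, adjusted p = 0.461, edgeR with batch). It was the 1 pathway gene called with the block (-1.35, adjusted p = 0.0348, edgeR). The neutrophil-attracting chemokines Cxcl3 and Cxcl2 had log2 fold changes of -1.20 and -0.60 (unadjusted p = 0.00290 and 0.0193, edgeR with batch). Cxcl1, another such chemokine of the list, was at 0.42 (unadjusted p = 0.120, edgeR with batch) and higher in 2 of 3 pairs. Among 6 other proteases known to cut IL-1 cytokines, 2 were higher, 4 were lower and 0 passed.

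**Figure D4:**
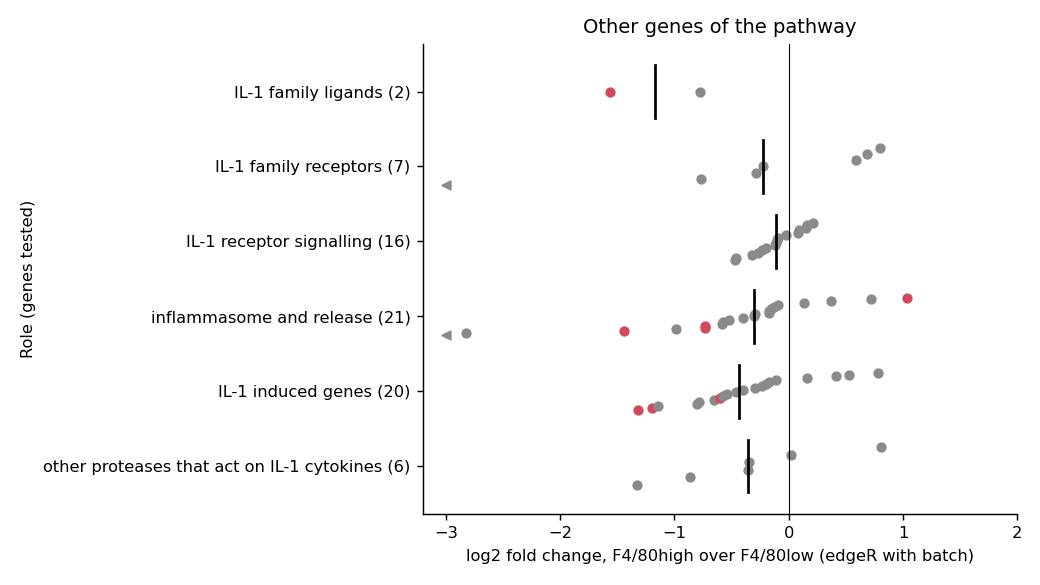
Log2 fold change of F4/80high over F4/80low (edgeR with batch) of 72 pathway genes by role, with a bar at the median of each role and red points for an unadjusted p under 0.05. The medians of all 6 roles lie below 0, and arrowheads at the left edge stand for 2 genes of low count beyond the axis.

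Markers of neutrophils, eosinophils, mast cells and dendritic cells mostly had lower point estimates in F4/80high. Those of T cells, NK cells and ILC had higher ones. Of 14 neutrophil markers, led by Retnlg and S100a9, 14 had lower point estimates in F4/80high and 0 were absent. An unadjusted p under 0.05 was reached by 9, against 7.6% of all genes tested. With the block in edgeR 7 were called, against 0.519%. The summed level of the 14 neutrophil markers was 2199, 960 and 781 CPM in F4/80high replicates 1, 2 and 3 and 5079, 3198 and 1611 CPM in F4/80low. That is a log2 difference of -1.21, -1.74 and -1.05 by pair, beside -1.21, -1.53 and -0.69 for Il1r2 and -0.82, -0.98 and -0.10 for Il1b. The other genes lower in every pair had -0.72, -0.59 and -0.70 (Il1rn), -0.17, -0.98 and -0.19 (Il1rl1) and -0.28, -0.03 and -1.20 (Il18).

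Of 9 eosinophil markers (Alox15 and Ccr3 highest) 9 were lower in F4/80high and 6 passed an unadjusted p under 0.05, against 7.6% of all genes tested. The eosinophil sums were 175 to 523 CPM in F4/80high and 387 to 1503 in F4/80low, with log2 differences of -1.07, -2.50 and -1.14 by pair. Of 14 mast cell and basophil markers (Hdc and Kit highest) 14 were lower and 1 passed, a share close to the 7.6% of all genes tested. Lower in all 3 pairs were 7 of 14, against 16%. Their sums were 43.1 to 348 and 118 to 905 CPM, with log2 differences of -1.06, -1.45 and -1.38 by pair. In replicate 3, where the sums were highest, Hdc gave 235 CPM in F4/80high and 467 in F4/80low, and Kit 91.3 and 384. Dendritic cell markers (Ccr7 and Fscn1) were lower for 8 of 9 genes, at 101 to 355 and 186 to 657 CPM, and fibroblast markers (Col1a2 and Col3a1) for 7 of 8. Markers of T cells, NK cells and ILC (Nkg7 and Gata3) were higher for 14 of 14. At an unadjusted p under 0.05 there were 3 of them, against 7.6% of all genes tested. The sums of these markers were 436 to 1452 and 243 to 654 CPM. By pair their sum differed by 1.41, -0.58 and 1.02 on the log2 scale, and 0 of the 14 were higher in all 3 pairs.

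Macrophage markers (Lyz2 and Cd14 highest) were higher in F4/80high for 9 of 13, while Cd14 itself was lower, at -0.19. Lyz2 was at 0.28 but higher in only 1 of 3 pairs. Of these markers 4 passed an unadjusted p under 0.05, against 7.6% of all genes tested. B cell markers (Cd79a and Cd79b highest) were higher for 4 of 6 at 6.62 to 135 CPM over the libraries, and endothelial markers (Kdr and Vwf highest) for 3 of 6 tested. Of these named genes Cd79a and Vwf were lower, at -0.36 and -0.22. Melanoma markers (Pmel and Sox10) summed to at most 3.08 CPM and keratinocyte markers (Krt10) to at most 1.82 CPM. The Lin- gate would remove cells that carry its lineage antigens before the F4/80 gate, and markers of neutrophils, T cells, NK cells and B cells were measured in the sorted libraries. The part of these other cells in the levels of Il1b, Il1rn, Il1r2, Il1rl1 and the pathway genes above was not tested.

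**Figure D5:**
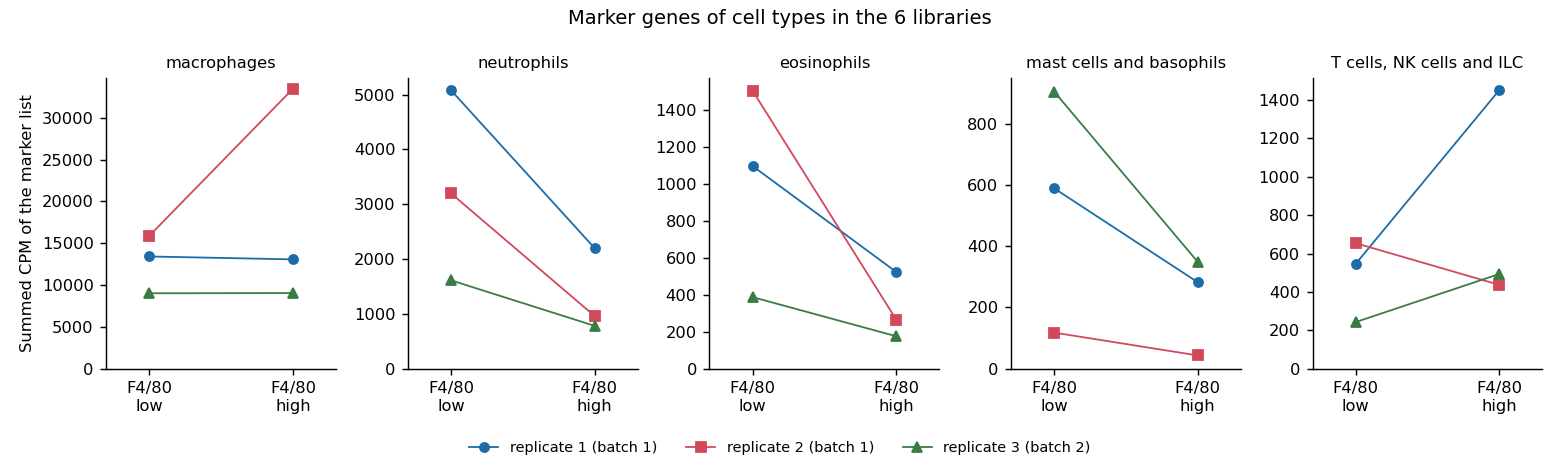
Summed CPM of the marker lists of 5 cell types in the 6 libraries, on linear axes from 0, with lines joining the libraries of one experiment. Neutrophil, eosinophil and mast cell and basophil sums are lower in F4/80high in all 3 experiments, and the macrophage sum of F4/80high replicate 2 stands out at 33476 CPM.

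The genes whose pattern was most like that of Il1b over the 6 libraries, after the mean of each batch was taken off log2 CPM, were Samsn1, Rdh12, Gatad2a, H2-Q10 and Lama4, with Pearson's r of 0.996 to 0.999. For Il18 they were Fam120b, Tmc6, Micu2, Capn10 and Smpdl3b, with r of 0.995 to 0.999. With 6 libraries such values were common, and 474 and 329 of 10986 genes had r above 0.9 with Il1b and Il18. Samsn1, an adaptor of blood cells, was at 196, 106 and 101 CPM in F4/80high and 298, 167 and 110.0 CPM in F4/80low, in the same order as Il1b.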

How the data were processed

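Poly-A RNA libraries of sorted F4/80high and F4/80low TAMs (n = 3 each) were analyzed. The authors deposited raw read counts per gene for each library, with gene length and no normalization. The aligner, counting rule and use of strand are not given in the sources used here. Genes were matched by ID to GENCODE M21 (GRCm38), which held 99.4% of the IDs. The filter of 10 counts in the sum of the 6 libraries left 14645 of 15813 protein-coding genes, and all 9 genes of the axis passed. Counts were fitted in R 4.3.3 with edgeR 4.0.16 (quasi-likelihood test, TMM, terms for batch and subset), and calls needed a log2 fold change above 1 in size and an adjusted p (Benjamini-Hochberg) under 0.05. DESeq2 1.42.0 was an alternative. Ratios used a prior count of 0.5 and exact permutation tests (scipy 1.17.1). CPM used TMM-scaled library sizes, so 3 counts are 0.0583 to 0.342 CPM.

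Replicate numbers were taken as pairs, since the study describes 3 independent experiments and the labels number both subsets alike. Over 10072 genes, the correlation of same-numbered libraries, each less its subset mean, was 0.745, 0.729 and 0.907. Between differently numbered libraries of batch 1 it was 0.612 and 0.633, and across the batches -0.821 to -0.750. These values thus reflect the batches as well, and the pairing within batch 1 stands out little from them. The steps were tested on simulated data. Genes changed there moved more than the 9 genes did here, and no effect of the experiment within a batch was simulated. That test therefore does not cover small changes or the pairing. The genes of the axis, the pathway and marker lists and the tests were chosen with earlier results of these data known. Named genes were the 9 genes, Adgre1, pathway genes at an unadjusted p under 0.05, the 5 genes most like Il1b and Il18, and the 2 highest of each marker list with that many genes tested. Cxcl1 and Tnf were added as genes of the IL-1 induced list that went the other way. Protein sequences were not used here.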

Additional observations from a re-analysis of the deposited data

How the results depend on the processing

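None of the 9 genes was called under the alternatives except Il1r2 with the replicate block in DESeq2 (1 gene). Over all genes, 0 were called with batch in edgeR (1113 at an unadjusted p under 0.05), 150 with DESeq2, 76 with the replicate block in edgeR and 356 with the block in DESeq2, and 0 to 57 when 1 library was left out, the 57 without F4/80high replicate 1. Of the 9 genes, 1 had an unadjusted p under 0.05 with batch (7.6% of all genes tested), 2 with DESeq2 (9.42%), 0 with no batch term (1.73%), 3 with the replicate block in edgeR (9.91%) and in DESeq2 (11.7%) and 0 without batch 2 (3.85%). With 1 library out the count was 0 to 2, 0 without replicate 3 of either subset (3.8% and 3.81% of all genes) and 2 without replicate 1 of F4/80high (13.8%) or replicate 2 of either (7.08% and 8.01%). The share of all genes thus moved with the setting too. Il1a, Il1b, Il18, Il1rn, Il1r2 and Il1rl1 were lower in F4/80high under all 17 settings run for each gene. The genes near 0 changed sign. Il1r1 was at -0.081 with the block in edgeR and -0.079 in DESeq2, -0.0044 without batch 2 and -0.47 to 0.31 when 1 library was left out. Il18bp was at 0.016 with library size alone and -0.25 to 0.12 with 1 library out, and Casp1 at 0.0062 without batch 2 and -0.20 to 0.0050 with 1 library out. With 1 library out, the log2 difference of Il1rn to Il1b ranged from -0.67 to 0.64 (0.25 without batch 2), of Il18bp to Il18 from -0.13 to 0.85, of Il1r2 to Il1r1 from -2.28 to 0.015 and of Il1a to Il1b from -0.53 to 0.57. These ratio differences compare subset means with no term for batch, so leaving 1 library out also unbalances the batches. The 0.015 came without F4/80high replicate 3, while the pair differences of that ratio were -1.55, -0.87 and -0.76. Apart from this imbalance, the cause of these changes was not tested. Batch 2 holds 1 library of each subset, so no spread can be estimated within it. A library left alone in its batch and subset is assumed to vary like the others.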
